A study of Homo sapiens with 6 samples.

Results

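The genes described here encode the nuclear subunits of the 5 complexes of oxidative phosphorylation, measured in MDA-MB-231 breast cancer cells that carried either a control hairpin (shNT) or a hairpin against the lactate receptor GPR81 (shGPR81). Members were taken by name from the table of 26255 gene symbols: those that start with NDUF and a subunit letter and number, SDHA to SDHD, CYC1, and those that start with UQCR, COX and a digit from 4 to 8, or ATP5. Of 94 names that matched, 5 were left out as pseudogenes or antisense genes and 8 had a mean below 1 FPKM over the 6 libraries. That left 81 members, all of which were among the 14349 genes tested. Of these, 75 are single subunits, 36 of complex I, 4 of complex II, 9 of complex III, 11 of complex IV and 15 of complex V. The other 6 are 2 readthrough transcripts (NDUFC2-KCTD14 and ATP5J2-PTCD1), UQCRHL, which is a copy of UQCRH, the supercomplex factor COX7A2L, ATP5S (coupling factor B), and ATP5SL, which is named after ATP5S. FPKM counts fragments per kilobase of transcript, scaled to the size of the library, so levels are given per length. The transcript lengths behind them are not given in the sources used here, so levels can be set beside each other between genes only roughly.

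Oxidative phosphorylation takes place in the inner mitochondrial membrane. Complexes I and II pass electrons from NADH and from succinate to ubiquinone, complex III passes them to cytochrome c, and complex IV passes them to oxygen. Complexes I, III and IV pump protons while they do so, and complex V, the ATP synthase, lets the protons back and makes ATP. Complex II is encoded wholly in the nucleus, and the other complexes also hold subunits encoded by mitochondrial DNA. Cancer cells that rely on glycolysis release lactate, and GPR81 (gene HCAR1) is a receptor for it.

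MDA-MB-231 is a human triple negative, mesenchymal-like breast cancer cell line. Both groups were infected with lentivirus carrying a hairpin, in the presence of polybrene, and selected with puromycin, and they differ in the hairpin, a scrambled control in shNT. There were 3 libraries a group of stranded, poly(A)-selected RNA. The labels do not say which of the study's hairpins against GPR81 the sequenced cells carried, or whether the libraries came from separate cultures, so p-values measure only the spread between these libraries, which may be technical.

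The target was at a low level in every library. In shNT, HCAR1 had a mean of 1.12 ± 0.212 FPKM and in shGPR81 one of 0.755 ± 0.314 (SD, n = 3). The log2 fold change was -0.57 (SE 0.31, limma adjusted p = 0.380), and the groups overlapped. The paper reports reduced GPR81 in its knockdown lines by RT-qPCR and western blotting. At this low level the libraries themselves do not settle the knockdown, so shGPR81 below means the libraries labelled so. The cell line markers VIM (3211 to 4443 FPKM), CD44, AXL, MSN and FOSL1 were present, with CD44 lower and VIM, MSN and FOSL1 higher in every shGPR81 library than in any shNT library. ESR1, PGR and CDH1 were listed at 0 in all 6 libraries, while GATA3 (1.11 to 1.39 FPKM), FOXA1 (1.17 to 1.92) and EPCAM (5.2 to 6.86) were at low levels. Of the markers of other cell types, CD3E, CDH5 and DCN were listed at 0, PTPRC and PECAM1 stayed below 0.14 FPKM, COL1A1 was at 0.503 to 1.18 FPKM, and CD68 was at 76.7 to 129 FPKM, higher in every shGPR81 library than in any shNT library. Relative depth, read from the steps of the low values, lay between 1 and 1.07. CD68 is also made by cells other than macrophages, and the part of these markers in the values below was not tested. Of the 14349 genes tested, 365 had both a limma adjusted p under 0.05 and more than a 1.5-fold difference.

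None of the 81 members passed both limits, against 2.54% of all tested genes. At an adjusted p under 0.05 alone, 1 member fell, ATP5E of the ATP synthase, against 3.07% of all genes lower, and 1 rose, COX7C of cytochrome c oxidase, against 2.06% of all genes higher (limma, Benjamini-Hochberg over all tested genes). At an unadjusted p under 0.05 there were 7 members (8.64%), against 19.5% of all genes. The shGPR81 values lay wholly below the shNT values for 7 members (8.64%), against 12.7% of all genes, and wholly above them for 4 (4.94%), against 12.9%. In bulk RNA, fewer cells of a type and less RNA per cell cannot be told apart.

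Most members differed little between the groups. Over the members the median log2 fold change was -0.0058 and over all tested genes 0.0081, with 41 members lower and 40 higher. The members' median was -0.06 without shNT replicate 1. The extremes were ATP5E at -0.35 and COX7C at 0.30. The median size of the log2 change, without its sign, was 0.063 for the members and 0.12 for all genes. The members are highly expressed, with a median of 129 FPKM against 8.24 for all tested genes, and their median SE was 0.070 against 0.10. The 95% interval of the log2 fold change lay inside a 1.5-fold change in either direction for all 75 single subunits, against 10020 of the 14349 tested genes. It went past that size for ATP5J2-PTCD1 (-0.87 to 0.59) and UQCRHL (-0.77 to 0.60), which had means of 3.96 and 4.25 FPKM.

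**Figure D1:**
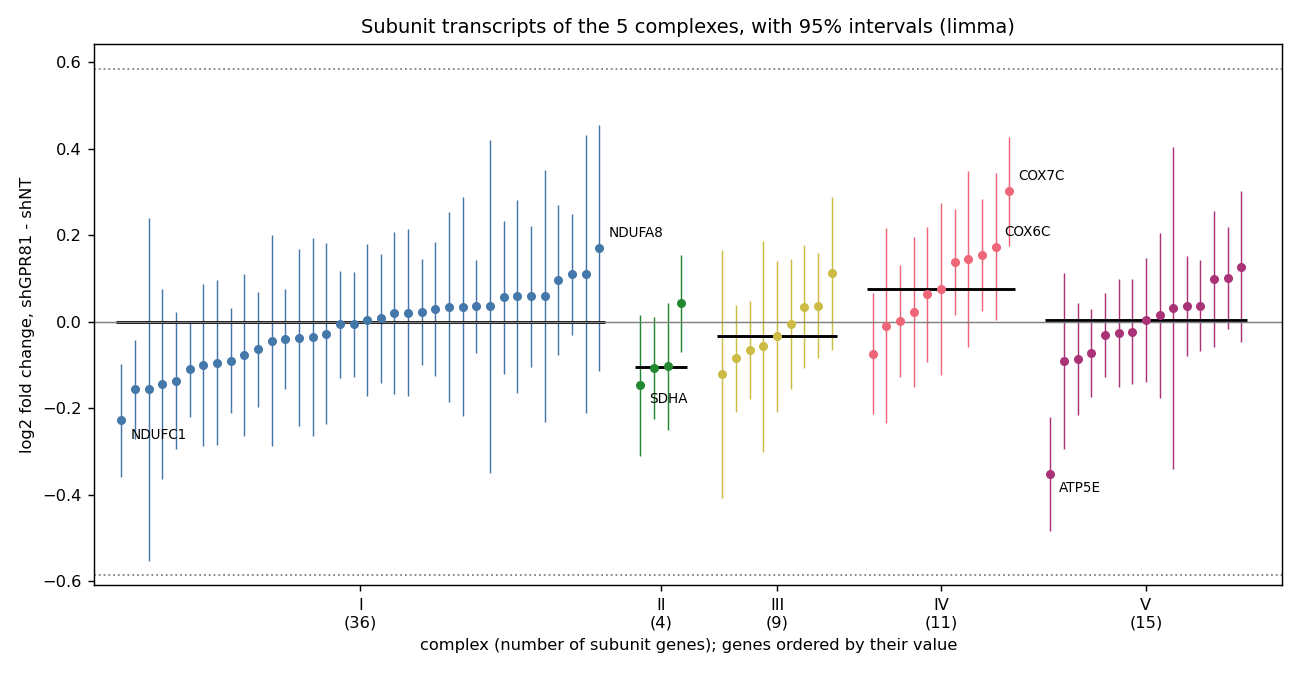
Log2 fold change (shGPR81 minus shNT) of the 75 single subunits, with 95% intervals from limma, grouped by complex and ordered by value within it. Black bars are the medians of the complexes, and dotted lines mark a 1.5-fold change, which no interval reaches; ATP5E is lowest at -0.35 and COX7C highest at 0.30.

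The promoters of these genes are known for binding sites of the nuclear respiratory factors NRF1 and NRF2 (the ETS factor GABP), and sequence motifs were counted in RefSeq promoters (GRCh38.p14, 250 bases before to 50 after the first listed start, both strands) of the 64 members that matched the table. An NRF1 motif, spelled GCGCATGC, was in 13 of 64 (20.3%), against 3.27% of all 27305 promoters and 5.32% of the 10942 promoters of tested genes. The ETS motif CCGGAAGT was in 9 (14.1%), against 4.44% of all and 8.66% of tested promoters. The YY1 motif AAGATGGCG was in 8 (12.5%, against 1.85% and 3.87%), and a full cAMP response element TGACGTCA in 5 (7.81%, against 1.98% and 3.28%). The SP1 motif GGGCGG was in 39 (60.9%), above its share of all promoters (44.6%) and below that of tested ones (69.4%), and CCAAT was in 21 (32.8%, against 35.7% and 36.6%). A match is a run of letters and no proof of binding. Windows of 30 bases are shown for subunits of several complexes and for the 2 called genes, 5' to 3' on the gene's strand, with the motif or its reverse complement in capitals. SDHD and COX5B each hold both the NRF1 and the ETS motif, and for COX5B only the NRF1 window is shown.
NDUFS6 (complex I, NRF1, chr5:1801350-1801379, plus strand): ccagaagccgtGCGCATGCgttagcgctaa
SDHD (complex II, NRF1, chr11:112086754-112086783, plus strand): gctgtgtttgcGCATGCGCgacgggtgtgc
SDHD (complex II, ETS, chr11:112086784-112086813, plus strand): accgcctctcgACTTCCGGttcacccagca
UQCRH (complex III, ETS, chr1:46303640-46303669, plus strand): gagtgtgccgcACTTCCGGccagatcgccg
COX5B (complex IV, NRF1, chr2:97645915-97645944, plus strand): ggcagagctggGCATGCGCaatttccgccc
ATP5C1 (complex V, NRF1, chr10:7788146-7788175, plus strand): ggagcttcggcGCATGCGCgctgaggcctg
ATP5E (complex V, CCAAT, chr20:59032364-59032393, minus strand): taggaggcggtgATTGGcaggtccgcacgc
COX7C (complex IV, SP1, chr5:86617909-86617938, plus strand): ttcctcaaggctCCGCCCcatttcccatct
The median log2 fold change was 0.014 for the members with the NRF1 motif and -0.0066 for those without, and 0.034 for those with the ETS motif and -0.0066 for those without. It was lower with the motif than without for YY1 (-0.042 and 0.017), SP1 (-0.0064 and 0.021) and CCAAT (-0.026 and 0.014), and for the cAMP response element it was 0.0036 with and -0.0064 without.

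Complex V makes ATP with a catalytic F1 head, a rotating central stalk, a ring of c subunits in the membrane and an outer stalk. ATP5E encodes the epsilon subunit of the central stalk and lies on chromosome 20 (chr20:57600530-57607400, GRCh37, minus strand). It was at 1037, 1046 and 1091 FPKM in the shNT libraries and at 844, 789 and 854 FPKM in the shGPR81 libraries. Every shGPR81 library was below every shNT library, and the gap between the groups was wider than the spread within either. ATP5E fell by 0.35 on the log2 scale, a ratio of 0.783 (SE 0.056, limma adjusted p = 0.0136). The call is lost without shGPR81 replicate 1, shGPR81 replicate 2 or shNT replicate 2 (limma adjusted p = 0.0663, 0.0822 and 0.0675), while the log2 fold change stays between -0.37 and -0.32. The readthrough row SLMO2-ATP5E, which shares exons with ATP5E and is not a member by its name, was at -0.38 (SE 0.067, limma adjusted p = 0.0201), and how reads were divided between the 2 rows is not given in the sources used here.

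ATP5E is the only member on chromosome 20, and its difference was close to that of the chromosome's other genes. The 267 genes of chromosome 20 with a mean of at least 5 FPKM had a median log2 fold change of -0.40, with quartiles of -0.52 and -0.31. Of these genes 257 were lower in shGPR81, 226 of them without overlap between the groups. The nearest 3 such genes on either side of ATP5E were all lower without overlap, GNAS at -0.34, NELFCD at -0.40 and CTSZ at -0.27 on the one side and SLMO2 at -0.37, FAM217B at -0.45 and CDH4 at -0.45 on the other. When the median of each chromosome was subtracted in each library, ATP5E was at 0.046 (SE 0.048, limma adjusted p = 0.681) and was no longer called. Whether the chromosome-wide difference comes with the hairpin or with the cells that were selected cannot be told apart in this design.

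**Figure D2:**
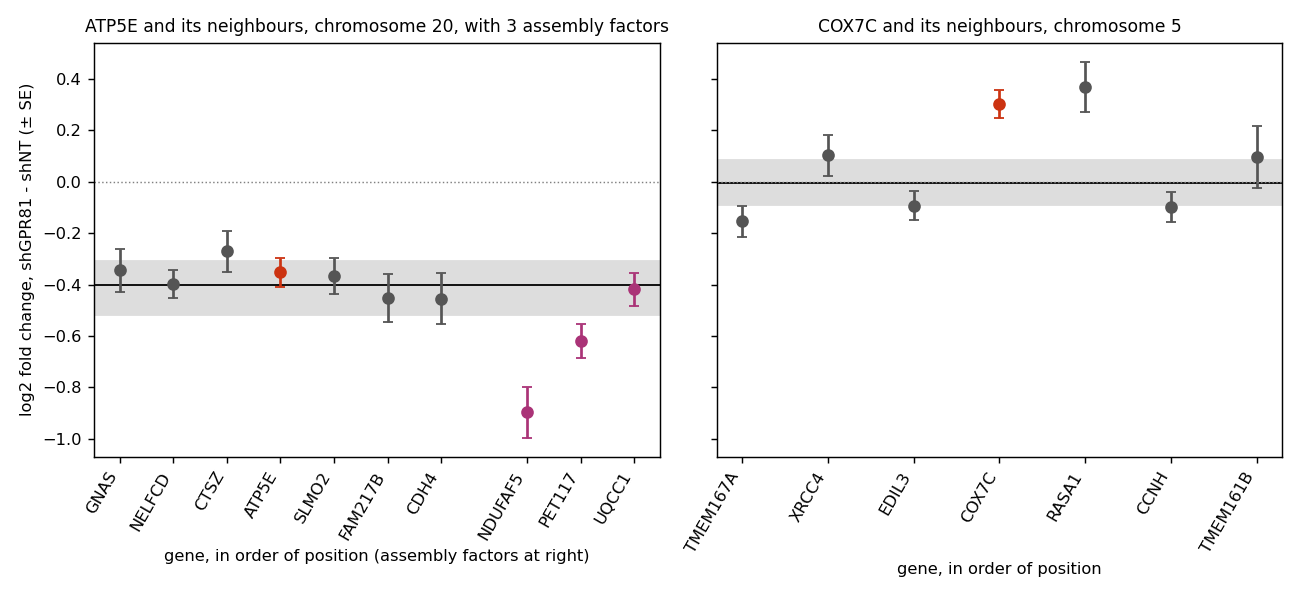
Log2 fold change (shGPR81 minus shNT, ± SE) of ATP5E with its neighbours and 3 assembly factors on chromosome 20 (left), and of COX7C with its neighbours on chromosome 5 (right). The black line and grey band give the chromosome's median and quartiles; ATP5E lies inside the band of chromosome 20, while COX7C lies above that of chromosome 5.

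Over all 15 subunits of complex V, ATP5E included, the median was near 0, at 0.0031. Neither catalytic head subunit passed the test. ATP5A1 (alpha) was at 323 ± 2.24 FPKM in shNT and 316 ± 1.55 in shGPR81 (SD, n = 3), without overlap and with a log2 difference of -0.03. ATP5B (beta) was at 595 ± 31.6 and 559.6 ± 9.13 FPKM (SD, n = 3), and its groups overlapped. The gamma subunit of the stalk, ATP5C1, was at 276 ± 7.63 and 283 ± 3.89 FPKM (SD, n = 3), and the delta subunit ATP5D at 109 ± 24.8 and 109 ± 10.7 FPKM (SD, n = 3). So of the 3 subunits of the F1 central stalk counted here, ATP5E alone passed the test, and the log2 fold changes of the others were 0.04 and 0.03. The 3 genes for the c subunit, ATP5G1, ATP5G2 and ATP5G3, differ in their targeting peptides but encode the same mature protein. Their log2 fold changes were -0.09, 0.01 and 0.0031, and the 3 genes had means of 253, 246 and 101 FPKM. In the outer stalk, ATP5F1 (subunit b, -0.07) lay below and ATP5H (subunit d, 0.10) above the shNT libraries without overlap, and neither passed the test (limma adjusted p = 0.438 and 0.336). The highest value of the complex was that of ATP5I (subunit e), at 0.13, with overlap.

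Complex IV was the complex with the highest median log2 fold change, 0.075, with 9 of its 11 nuclear subunits higher and 2 lower. Of the 7 members at an unadjusted p under 0.05 by limma, 4 are among these 11, and 19.5% of all genes were at that level. Higher without overlap were 3 of the 11, against 12.9% of all genes. Without shNT replicate 1 the median of the complex was 0.0039. COX7C, a small membrane subunit around the catalytic core, had the highest mean of all members (1239.8 FPKM). It was at 1084, 1122 and 1126 FPKM in the shNT libraries and at 1404, 1325 and 1377 FPKM in the shGPR81 libraries, which came from 2975 to 3156 and from 3846 to 4127 reads. The groups did not overlap, and the lowest shGPR81 library was further above the highest shNT library than the libraries of either group were from each other. COX7C rose by 0.30 on the log2 scale, a ratio of 1.23 (SE 0.054, limma adjusted p = 0.0211). The call is lost without any 1 of the 3 shGPR81 libraries or without shNT replicate 2 (limma adjusted p from 0.0824 to 0.126), while the log2 fold change stays between 0.28 and 0.32.

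COX7C lies at chr5:85913745-85916779 (GRCh37, plus strand), and unlike ATP5E it stood apart from its chromosome. The 418 genes of chromosome 5 with at least 5 FPKM had a median of -0.0036, and COX7C was at 0.31 after each chromosome was centred (limma adjusted p = 0.0216). Of its 6 nearest neighbours, RASA1 was also higher without overlap, at 0.37 (limma adjusted p = 0.0866), and EDIL3 (-0.09) and TMEM167A (-0.15) were lower without overlap. The other neighbours XRCC4, CCNH and TMEM161B lay between -0.10 and 0.10 with overlapping groups.

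COX7B and COX7A2, further small subunits of cytochrome c oxidase, were also higher without overlap but did not pass the adjusted test. COX7B was at 496, 550.4 and 536 FPKM in shNT and at 591, 578 and 589 FPKM in shGPR81 (log2 fold change 0.15, limma adjusted p = 0.181). COX7A2 was at 200.5, 220.1 and 200.5 FPKM in shNT and at 229.8, 225 and 228 FPKM in shGPR81 (0.14, limma adjusted p = 0.208). For both genes the lowest shGPR81 library lay just above the highest shNT library. COX6C was at 108, 91.8 and 90.7 FPKM in shNT and at 107, 110.2 and 109 FPKM in shGPR81 (0.17, limma adjusted p = 0.249). Here shNT replicate 1 was in the range of shGPR81, and without that library COX6C was at 0.26 (limma adjusted p = 0.0107).

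No other subunit of complex IV passed the test or was without overlap. COX4I1, which carries a site of regulation by ATP, was at 358 ± 29.9 FPKM in shNT and 363 ± 19.5 in shGPR81 (SD, n = 3), a log2 difference of 0.02. COX5A was at -0.07, COX5B at 0.15 with overlap, and COX8A at -0.0091. NDUFA4, which is named for complex I but is found in complex IV, was the lowest of the complex in level at 40.2 FPKM, with the smallest log2 difference (0.0012, 95% interval -0.13 to 0.13). The higher median of complex IV was sensitive to 1 library: without shNT replicate 1 it was 0.0039. Without any other 1 library it lay between 0.048 and 0.12. The isoforms known from muscle, testis, lung or hypoxia were at or near 0. COX4I2, COX6A2, COX7A1, COX7B2, COX8C and NDUFA4L2 were listed at 0 in all 6 libraries, as was ATP5L2, and COX6B2 was at 0 to 0.377 FPKM.

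**Figure D3:**
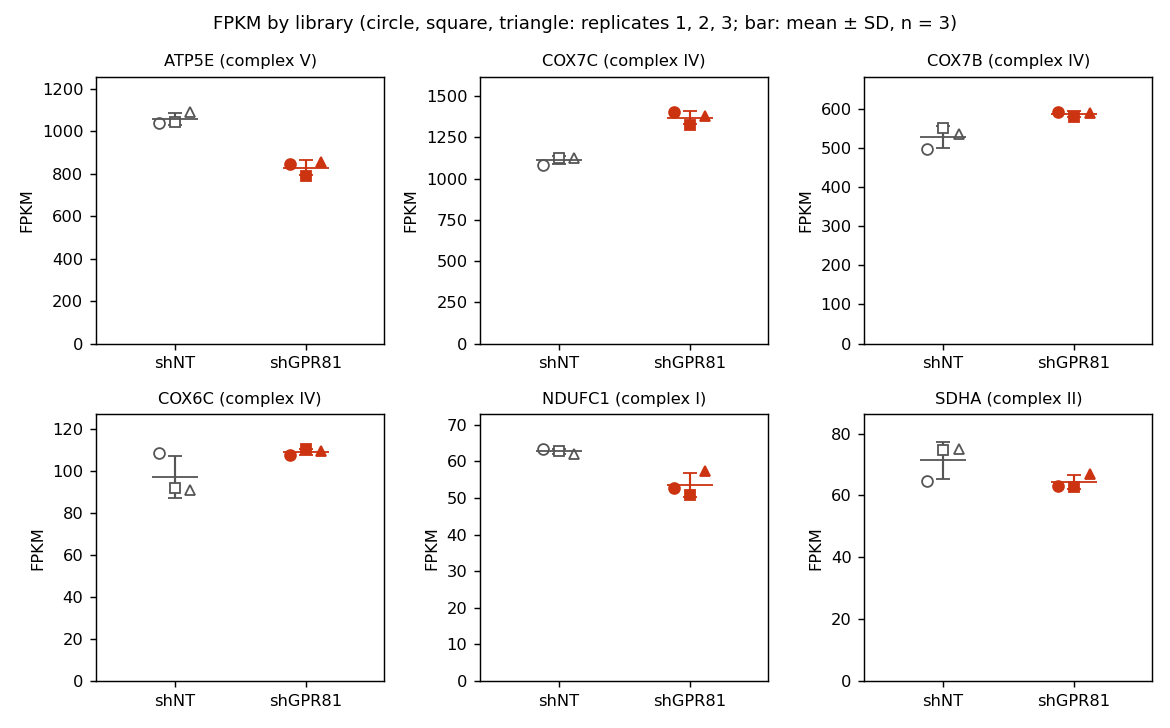
FPKM of ATP5E, COX7C, COX7B, COX6C, NDUFC1 and SDHA in each library, on axes that start at 0, with bars for the mean ± SD (n = 3). ATP5E and NDUFC1 are lower and COX7C and COX7B higher in all 3 shGPR81 libraries, while for COX6C and SDHA shNT replicate 1 lies near the shGPR81 values.

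Complex I, which oxidises NADH, was balanced, with 18 of its 36 nuclear subunits lower, 18 higher and a median of -0.0014, which was -0.07 without shNT replicate 1 and 0.03 without shNT replicate 3. Levels ran from 10.4 FPKM for NDUFA5 to 473 FPKM for NDUFS5. The 7 core subunits, which carry the flavin, the iron-sulfur clusters and part of the quinone site, ranged from -0.16 to 0.11, and the 29 accessory subunits had a median of -0.0064. NDUFV1, which binds NADH, was at 87.5 ± 9.29 FPKM in shNT and 88.5 ± 4.0 in shGPR81 (SD, n = 3), and NDUFV2 was at 124 ± 4.89 and 116 ± 4.30 (SD, n = 3). NDUFS1, the largest iron-sulfur subunit, was at 65.9, 64.0 and 62.8 FPKM in shNT and at 59.2, 61.6 and 57.9 FPKM in shGPR81, lower without overlap (-0.11, limma adjusted p = 0.266). NDUFS3 (0.03) differed by less than its SE of 0.066. NDUFS7 and NDUFS8 had the extreme values of the core, -0.16 and 0.11, with SEs of 0.17 and 0.14, and both were lowest in shNT replicate 1 (37.6 and 126 FPKM).

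The lowest values of complex I were those of NDUFC1 and NDUFB6, both accessory subunits of the membrane arm. NDUFC1 was at 63.3, 62.8 and 62.0 FPKM in shNT and at 52.6, 50.8 and 57.3 FPKM in shGPR81. The groups did not overlap, but the gap between them was smaller than the spread within shGPR81, and the log2 fold change of -0.23 (SE 0.056) missed the threshold with a limma adjusted p of 0.0672. NDUFB6 was at 94.7, 90.8 and 94.1 FPKM in shNT and at 82.0, 81.3 and 87.5 FPKM in shGPR81 (-0.16, limma adjusted p = 0.132). NDUFB6 and NDUFA8 are the members on chromosome 9, whose 358 genes of at least 5 FPKM had a median of 0.10. NDUFB6 thus lay below the median of its chromosome, and after centring it was at -0.25 (limma adjusted p = 0.0387). That median covers the whole chromosome, on which NDUFB6 starts at 32552997 and NDUFA8 at 124906337 (GRCh37). Parts of the chromosome were not centred apart, so the difference of NDUFB6 from genes near it was not tested. NDUFA8 had the highest value of the complex, 0.17, with overlap and with shNT replicate 1 the lowest at 75.3 FPKM.

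Complex II oxidises succinate and also serves the citric acid cycle. Its catalytic subunits, the flavoprotein SDHA and the iron-sulfur protein SDHB, and the anchor SDHC were lower at the level of the mean, and none passed the test. SDHA was at 64.5, 74.7 and 74.9 FPKM in shNT and at 63.1, 62.8 and 67.0 FPKM in shGPR81 (-0.15, limma adjusted p = 0.305). SDHB was at 186 ± 13.9 and 173 ± 5.2 FPKM (SD, n = 3), a log2 difference of -0.10. SDHC was at 34.9, 36.7 and 36.2 FPKM in shNT and at 33.2, 32.3 and 34.4 FPKM in shGPR81, lower without overlap (-0.11, limma adjusted p = 0.305). The second anchor, SDHD, was at 200.3 ± 7.0 and 206 ± 4.93 FPKM (SD, n = 3), a log2 difference of 0.04. The median of the 4 subunits was -0.11. Without shNT replicate 1, SDHA was at -0.22 (limma adjusted p = 0.0363).

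Complex III passes electrons from ubiquinol to cytochrome c, and no subunit of it passed the test or was without overlap. The electron-carrying subunits were cytochrome c1, CYC1, at 193 ± 31.8 and 176 ± 14.1 FPKM (SD, n = 3), a log2 difference of -0.12, and the Rieske protein UQCRFS1 at 155 ± 10.1 and 154 ± 8.28 FPKM (SD, n = 3), a difference of -0.0058. The core proteins UQCRC1 and UQCRC2 were at -0.06 each. CYC1 was the lowest of the complex, the small subunit UQCR11 was at -0.08, and the small subunit UQCRB was the highest at 0.11. The hinge protein UQCRH had the highest level of the complex at 804.5 FPKM and was at 0.04, while its copy UQCRHL rested on 13 to 26 reads a library, and reads of the 2 genes may not be told apart. The median of the 9 subunits was -0.03, and it changed sign without shNT replicate 3 (0.02) or shGPR81 replicate 1 (0.0055).

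Per library, the medians of the complexes showed how far the libraries of 1 group differed among themselves. Set against the shNT mean of each gene, the members' median was -0.09, 0.02 and 0.06 in the 3 shNT libraries and -0.02, -0.05 and 0.04 in the 3 shGPR81 libraries, so the groups overlapped. In complex IV the 3 shGPR81 libraries were at 0.04, 0.06 and 0.14 and the shNT libraries at -0.09, 0.02 and 0.08. In complex II the shGPR81 libraries were at -0.12, -0.13 and -0.06, and shNT replicate 1 lay between the last 2 of them at -0.06. The median over all tested genes stayed within 0.011 of 0 in every library.

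**Figure D4:**
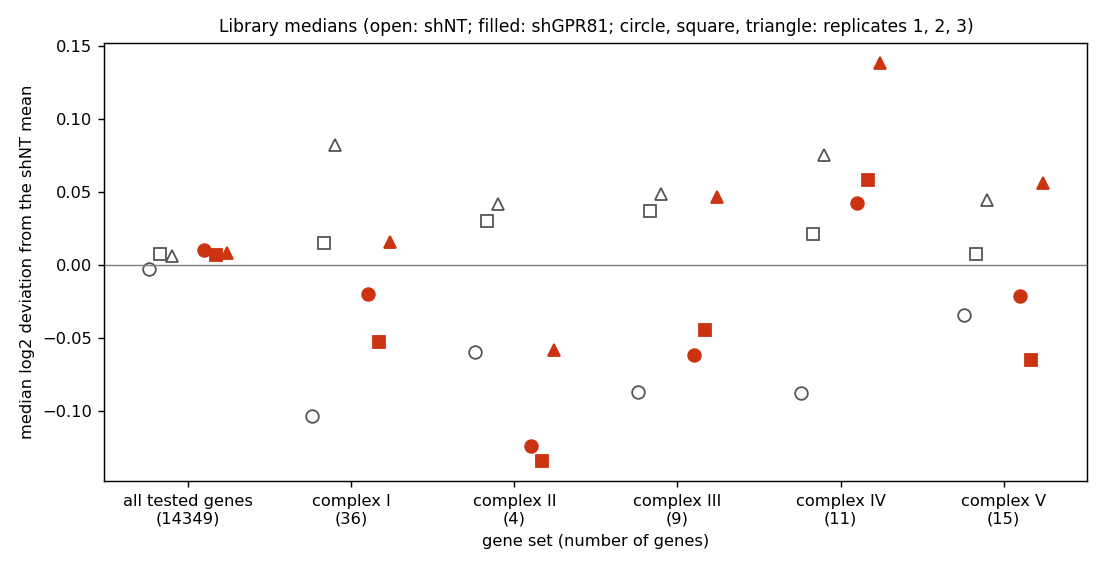
Median log2 deviation from the shNT mean in each library, over all tested genes and over the nuclear subunits of each complex (number of genes in brackets). shNT replicate 1 has the lowest shNT median in every complex, and the medians of the groups overlap in complexes I to V.

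Among the shNT libraries, replicate 1 differed from the others over the members. It had the lowest value of all 6 libraries for 42 of the 81 members (51.9%), against 26.2% of all tested genes, and shNT replicate 3 had the highest for 39 (48.1%), against 20.3%. This went with GC content, the share of G and C bases in the transcript. Over the 40 members of higher GC (48.5% to 69.5%), shNT replicate 1 was 0.28 below the mean of the other shNT libraries at the median and lowest in 28. Over the other 41 members it was 0.04 below and lowest in 14. All tested genes of at least 5 FPKM showed the same order, at 0.10 above on the lower side and 0.18 below on the upper side of the same limit. The median SE was 0.055 for the members of lower and 0.088 for those of higher GC. The part of GC content in the difference between the groups was assessed by subtracting the median of genes of like GC in each library. With that correction ATP5E and COX7C were still called (limma adjusted p = 0.0163 and 0.0204). NDUFC1 (-0.22, limma adjusted p = 0.0253) and COX6C (0.18, limma adjusted p = 0.0295) were called as well. Calls rose over all genes too, from 736 to 1587 of 14349 at a limma adjusted p under 0.05.

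**Figure D5:**
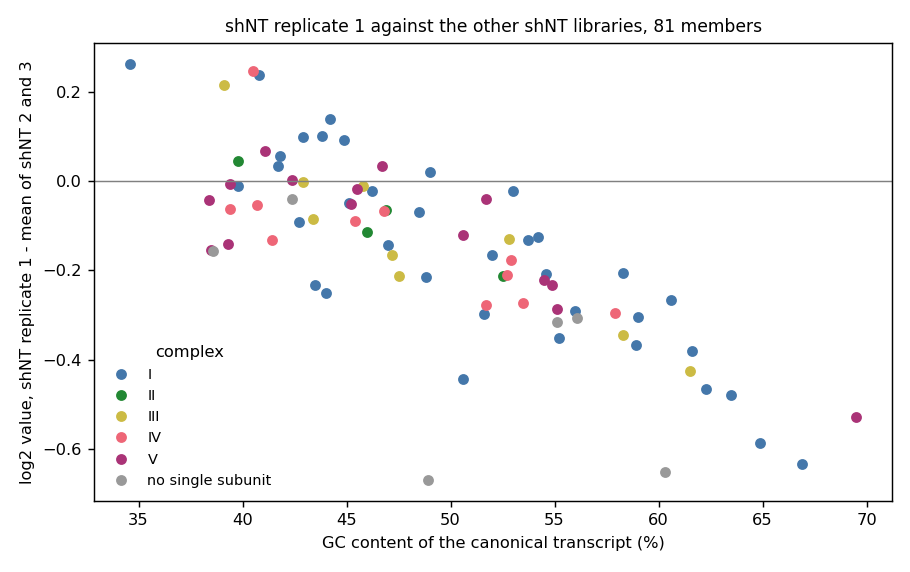
Log2 value of shNT replicate 1 minus the mean of shNT replicates 2 and 3, against the GC content of the canonical transcript, for the 81 members coloured by complex. Points go down to the right: the 40 members of higher GC have a median of -0.28 and the 41 of lower GC one of -0.04.

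Of the genes that build the complexes or serve them, only assembly factors were called. Subunits whose names the rule leaves out, NDUFAB1, USMG5 and C14orf2, were at -0.09, -0.06 and -0.04, and none was called (no member of the 3 at an unadjusted p under 0.05 by limma). The subunits encoded by mitochondrial DNA were searched under 26 names, synonyms included. None of these names was among the gene symbols, so those subunits could not be analysed here. Of 54 assembly factors, which insert cofactors and join the subunits, 31 were lower and 23 higher with a median of -0.04, 3 fell (5.56%, against 3.07% of all genes) and none rose (against 2.06%) at a limma adjusted p under 0.05, and 8 had an unadjusted p under 0.05 (14.8%, against 19.5%). Of 14 genes for ubiquinone synthesis, cytochrome c and related electron carriers, none was called, 2 had an unadjusted p under 0.05 by limma, and the median was 0.02. Of 19 regulators of mitochondrial biogenesis and of the ATP synthase, none was called, 3 had an unadjusted p under 0.05 by limma, and the median was -0.06. TFB1M, a mitochondrial rRNA methyltransferase, was at 0.26 (limma adjusted p = 0.0845), and ATPIF1, the inhibitor of the ATP synthase, at 0.18 (limma adjusted p = 0.124).

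The 3 assembly factors that fell are the only genes of these lists on chromosome 20. NDUFAF5, a hydroxylase that acts on a core subunit of complex I, was at 8.56, 7.54 and 8.15 FPKM in shNT and at 4.78, 3.89 and 4.25 FPKM in shGPR81. The shGPR81 libraries were far below the shNT libraries, with a log2 fold change of -0.90 (SE 0.10, limma adjusted p = 0.00333). PET117, needed for complex IV, was at 13.6, 12.7 and 13.1 FPKM and at 8.76, 8.11 and 8.61 FPKM (-0.62, limma adjusted p = 0.00266). UQCC1, needed for translation of cytochrome b of complex III, was at 35.3, 36.9 and 40.8 FPKM and at 27.6, 28.5 and 28.2 FPKM (-0.42, limma adjusted p = 0.0118). None of the 3 had groups that overlapped. With 1 library left out, NDUFAF5 and PET117 stayed called in all 6 fits, while UQCC1 was lost without shGPR81 replicate 1, shGPR81 replicate 2 or shNT replicate 2 (limma adjusted p = 0.0622, 0.0559 and 0.0555). After each chromosome was centred, NDUFAF5 was at -0.50 (limma adjusted p = 0.0458), PET117 at -0.22 (limma adjusted p = 0.144) and UQCC1 at -0.02 (limma adjusted p = 0.881). So of the 4 genes on chromosome 20 among the 171 members and list genes tested, all 4 were called lower. NDUFAF5 was the only 1 still called against the level of its chromosome, a median over its whole length. NDUFAF5 and PET117 start at 13765653 and 18118507, and UQCC1 and ATP5E at 33890369 and 57600530 (GRCh37). Parts of the chromosome were not centred apart, so whether the fall is particular to NDUFAF5 or shared with genes near it was not tested. Off chromosome 20, the widest differences among the assembly factors were SDHAF4 of complex II at 0.53 (limma adjusted p = 0.0918) and SURF1 of complex IV, on chromosome 9, at 0.31 (limma adjusted p = 0.148), both without overlap.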

How the data were processed

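RNA-seq libraries of shNT and shGPR81 MDA-MB-231 cells (3 each) were read as single ends of 75 bases. The deposited table holds FPKM that the authors made with Cuffnorm 2.2.1 after mapping with TopHat2 2.0.13, Bowtie2 2.2.3 and SAMtools 0.1.19, per the submitters' processing notes. The paper names the human genome hg19 and the deposited description the mouse genome mm10. The cells and symbols are human. The annotation is not given in the sources used here.

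Groups came from the titles. The test was limma 3.58.1 (lmFit, eBayes with trend; R 4.3.3) on log2(FPKM + 0.1). It took in the 14349 genes that reached 0.1 FPKM in 3 or more libraries, and p-values were adjusted by Benjamini-Hochberg over them. Fold changes are on that scale. The study states an analysis of read counts, but FPKM were at hand, so the count test was not used. FPKM keep no totals. For 29 members, whole reads (13 to 4127 a library) were recovered from the steps of the values. Intervals cover the spread between libraries. The fit was tested on simulated data.

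Named with values were members at an adjusted p under 0.05, the 2 highest and 2 lowest of each complex, core and catalytic subunits, tissue isoforms, the extremes in level, and members on chromosomes 9 and 20. COX7B, COX7A2, ATP5D, ATP5G2 and ATP5F1 were named after their values were seen. A gene under this rule is not reported here. Members and the 5 gene lists were chosen with earlier results of these data known. Loci are from GENCODE (GRCh37), and promoters from RefSeq. Alternatives were a replicate block, each library left out, other filters, pseudocounts and normalizations, a test against a 1.5-fold change, and, chosen after seeing the data, centring each chromosome, a GC correction in 20 bins, single subunits alone, and NDUFA4 in complex I. The labels do not say whether replicate numbers pair the libraries, and the main test did not pair them.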

Additional observations from a re-analysis of the deposited data

How the results depend on the processing

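The count of members past both thresholds was 0 under every alternative run. The 1 member called lower and the 1 called higher stayed within 1.5 times except as follows: the test against a 1.5-fold change called 0 lower and 0 higher, no filter and quantile normalization each called 0 higher (COX7C at adjusted p = 0.0501 and 0.0612 by limma), the GC correction called 2 lower and 2 higher, and leaving out 1 library gave 0 to 3 lower and 0 to 2 higher. The highest counts came without shNT replicate 1, where ATP5E, NDUFS7 (-0.37) and SDHA (-0.22) were lower and COX7C and COX6C (0.26) higher. The cause was not tested. ATP5E turned to 0.046 when each chromosome was centred, since that setting subtracts the median of chromosome 20, and NDUFB6 was called there. The median of complex IV lay between 0.0039 and 0.12 with 1 library left out, lowest without shNT replicate 1. It was 0.073 with the GC correction and 0.055 with each chromosome centred. With the replicate number as a replicate block, 1 member was lower and 1 higher, ATP5E (adjusted p = 0.0186 by limma) and COX7C (adjusted p = 0.0343 by limma), as without it. The labels do not say whether equal numbers mark paired libraries. Across genes, which are not independent replicates, the deviations of equally numbered libraries from their group means correlated at 0.12, 0.022 and 0.0058. For unequal numbers the correlations lay between -0.10 and 0.083. With 3 libraries a group, such weak correlations cannot decide whether the libraries are paired. Over all genes, 736 were at an adjusted p under 0.05 by limma, against 1587 with the GC correction, 55 against a 1.5-fold change, and 282 to 1014 with 1 library left out. With 3 libraries a group and no totals of reads, smaller differences of the members than their intervals could not be seen.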
